A study of Homo sapiens with 3 samples.

Results

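The T cell receptor gene loci were read from the H3K4me3 and H3K4me1 maps of the ALL-SIL line, which was grown from a human T-cell leukaemia (T-ALL) and is known to carry a translocation that joins the homeobox gene TLX1 to the T cell receptor delta region. The loci were taken as the RefSeq GRCh38 spans of TRA, TRD, TRB and TRG with 50 kb on each side, and every peak with at least 1 bp inside was kept. They held 19 of the 11100 H3K4me3 peaks and 105 of the 62087 H3K4me1 peaks. Chromatin immunoprecipitation with sequencing had been run with 1 library per mark and 1 input library, on the 1 line, and the labels name no drug treatment. The H3K4me3 library held 30823016 filtered tags, the H3K4me1 library 34813455 and the input 18859011. With 1 library per mark there was no replicate error and no test. A mark on few cells or alleles and a weak mark on all cells cannot be told apart in such a bulk preparation.

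T cell receptors are assembled in the thymus from separate V, D, J and C gene segments, which the RAG1 and RAG2 recombinase joins at recombination signals, a heptamer and a nonamer beside each segment. Joining of a V to a D or J segment usually deletes the DNA between them. H3K4me3, the mark of active promoters, is bound by a domain of RAG2, while H3K4me1 marks enhancers and the flanks of promoters. Each locus has an enhancer near its C segments: TRA beyond TRAC, TRB beyond TRBC2, TRG beyond TRGC2, and TRD between its last J segment and TRDC. TRD lies inside TRA, so the peaks of both were counted once, in 1 TRA/TRD stretch. Peaks were placed on the germline reference sequence, which a rearranged allele does not follow.

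Promoter-type windows of RefSeq (GRCh38.p14, 250 bases before to 50 after a start) were available for 19 of the 39 genes in the stretches that are not segments, and for 0 of the 227 segment genes. The 4 windows shown lay in peaks at J segments, beyond TRAC, between TRDV2 and TRDD1 or in the TRG V cluster. The first lies wholly under the longest H3K4me3 peak at the start of the lncRNA gene TRG-AS1, the second under an H3K4me3 peak at a start of the lncRNA gene TRD-AS1, and the third under H3K4me1 beyond TRAC. Capitals in these 3 mark matches on either strand to 6 motifs, none of which overlapped. ETS factors are known to bind GGAAGT and RUNX factors to bind TGTGGT. The letters searched for GATA factors were AGATAA, and those for E proteins were CAGCTG. For TCF and LEF factors the search used CTTTGA. The cAMP response element was TGACGTCA. Capitals in the fourth, the minus strand over the TRBJ2 cluster under H3K4me3, mark the J segments TRBJ2-3 and TRBJ2-2P.
TRG-AS1 (chr7:38341171-38341470, plus strand): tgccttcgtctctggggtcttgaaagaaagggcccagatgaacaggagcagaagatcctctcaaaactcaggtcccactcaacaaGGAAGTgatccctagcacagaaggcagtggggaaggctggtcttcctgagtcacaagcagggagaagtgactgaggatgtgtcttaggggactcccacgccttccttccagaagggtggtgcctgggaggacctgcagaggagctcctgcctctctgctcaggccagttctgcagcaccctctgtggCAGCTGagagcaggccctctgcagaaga
TRD-AS1 (chr14:22432704-22433003, minus strand): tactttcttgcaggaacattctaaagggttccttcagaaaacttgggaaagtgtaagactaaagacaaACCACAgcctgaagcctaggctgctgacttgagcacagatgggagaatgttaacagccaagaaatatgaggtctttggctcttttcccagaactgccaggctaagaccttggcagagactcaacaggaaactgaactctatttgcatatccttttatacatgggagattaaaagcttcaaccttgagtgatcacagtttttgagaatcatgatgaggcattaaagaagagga
LOC105370399 (chr14:22556316-22556615, plus strand): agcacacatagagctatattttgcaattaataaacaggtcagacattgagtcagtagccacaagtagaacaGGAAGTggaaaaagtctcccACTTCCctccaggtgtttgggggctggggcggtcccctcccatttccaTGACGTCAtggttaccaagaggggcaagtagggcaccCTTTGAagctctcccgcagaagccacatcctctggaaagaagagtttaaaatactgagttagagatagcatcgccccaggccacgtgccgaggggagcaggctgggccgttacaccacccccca
LOC124901762 (chr7:142796642-142796941, minus strand): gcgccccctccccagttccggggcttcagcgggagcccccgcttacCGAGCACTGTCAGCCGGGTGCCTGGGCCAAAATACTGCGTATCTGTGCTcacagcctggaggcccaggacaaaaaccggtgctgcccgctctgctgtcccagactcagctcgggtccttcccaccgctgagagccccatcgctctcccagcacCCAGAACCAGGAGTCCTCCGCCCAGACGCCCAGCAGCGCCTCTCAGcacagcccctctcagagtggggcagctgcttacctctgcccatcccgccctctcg

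The TRAC-side window held 2 GGAAGT matches, 1 CTTTGA match and 1 TGACGTCA match, with 0 matches to the RUNX letters TGTGGT and 0 to CAGCTG. A cAMP response element, TCF or LEF, RUNX and ETS sites are the known parts of the T cell receptor alpha enhancer. Only exact letters were searched, so a site with a changed base was not counted and 0 matches do not show that a site is absent. Whether the matches are the sites of that enhancer was not tested. Of all 35116 promoter windows of the same length, 22.8% held GGAAGT, 12.9% CTTTGA and 1.85% TGACGTCA. The TRG-AS1 window held 1 GGAAGT and 1 CAGCTG match, with CAGCTG in 17.9% of all windows, and 2 CpG dinucleotides, against a median of 14 over all windows. The TRD-AS1 window held 1 TGTGGT match, found in 13.1% of all windows, and 0 CpG dinucleotides. AGATAA, present in 10.3% of all windows, was in none of these 3. In the fourth window the bases next to TRBJ2-3, read outwards from the segment, were CACAGCC, a spacer of 12 bases and ACAAAAACC. The nonamer equals the consensus ACAAAAACC, and the heptamer differs from the consensus CACAGTG by T6C and G7C, with positions counted from 1 at the base beside the segment. Beside TRBJ2-2P the heptamer was the same CACAGCC, and the 9 bases after a spacer of 12, GGGCAGCTG, differed from the consensus nonamer at 8 positions.

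Marker genes were read as a check of the lineage. H3K4me3 lay in the span or within 1 kb of 7 of 7 T lineage markers (CD3D, CD3E, CD3G, CD7, CD5, LCK and BCL11B), against 53.4% of all 20037 protein-coding genes. It lay at 2 of 5 B lineage markers (CD79B and PAX5, under peaks of 355 and 197 bp), 0 of 5 myeloid markers and 1 of 4 natural killer markers (NKG7). H3K4me1 lay at 7 of 7 T, 5 of 5 B, 2 of 5 myeloid and 2 of 4 natural killer markers, against 63.4% of protein-coding genes.

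Both marks covered more of the receptor loci than of the genome. H3K4me3 covered 4.44% of the 3 stretches (83.2 of 1873 kb), against 0.578% of chromosomes 1 to 22 and X between their first and last RefSeq genes. H3K4me1 covered 21.3% of the stretches (398.9 kb), against 3.67% of those chromosomes. With flanks, H3K4me1 covered more than H3K4me3 in each stretch, by margins that differed between the loci. TRG had 17.8% of its stretch under H3K4me3 and 18.4% under H3K4me1. TRB had 2.79% under H3K4me3 and 36.3% under H3K4me1, and TRA/TRD had 2.47% and 13.0%. TRD with its flanks had 14.4% under H3K4me3 and 30.9% under H3K4me1. Without flanks the order turned in TRD and TRG. The TRD span of 44.0 kb had 43.6% of its bases under H3K4me3 and 17.6% under H3K4me1, and the TRG span had 31.7% and 8.98%. TRB without flanks had 2.84% and 41.6%, and TRA/TRD 2.6% and 12%.

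**Figure D1:**
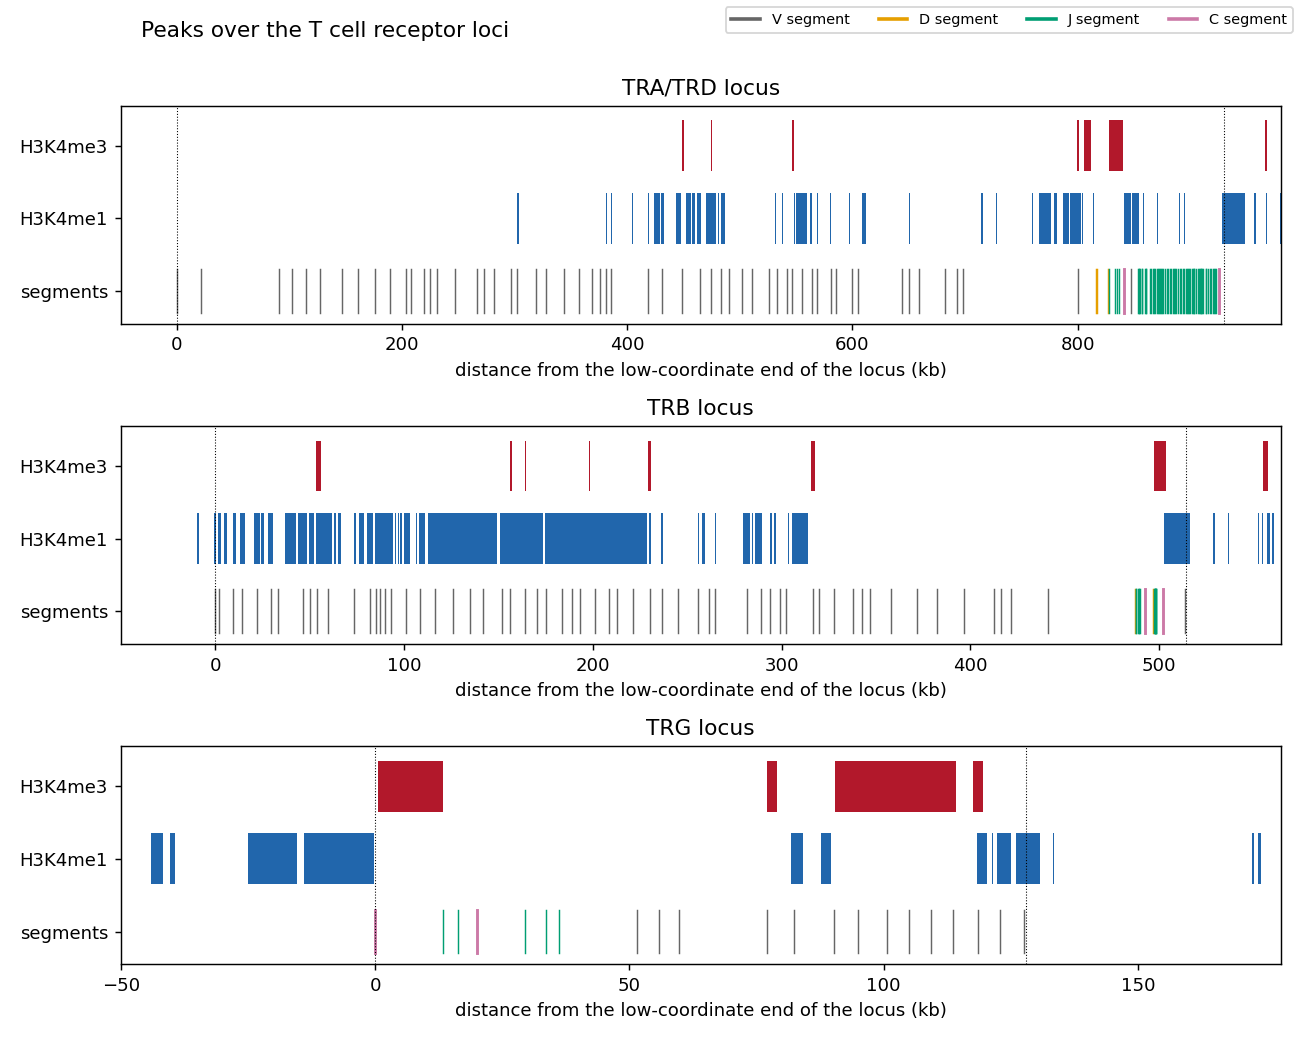
Peaks of H3K4me3 (red) and H3K4me1 (blue) and the V, D, J and C segments over TRA/TRD, TRB and TRG, with distance in kb from the low-coordinate end of each locus on the x axis and dotted lines at the locus ends (segments and the shortest peaks are widened to be visible). V segments run from left to right towards C in TRA/TRD and TRB and from right to left in TRG, and H3K4me1 fills the left part of TRB while the long H3K4me3 peaks lie in TRG and at the TRD J segments.

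The TRG locus, which encodes the gamma chain, held the longest H3K4me3 peak of the whole list. It ran over 23.8 kb on chromosome 7 from 38330486 to 38354262, with a mean pileup of 13.98 fragments and a fold over local background of 5.40, both given by the authors' caller as means over the region. Pileup is the number of overlapping fragments, with the larger library scaled to the smaller. This peak was first in length among 11100 but only 5151st in pileup, so that its length and not its height set it apart. It lay over 6 V segments (TRGV8, TRGV7, TRGV6, TRGV5P, TRGV5 and TRGV4) and over the start of TRG-AS1, which is transcribed in the direction opposite to the V segments. No base of it was under H3K4me1. A further peak of 2125 bp over TRGV3 and TRG-AS1, from 38357512 to 38359636, had the highest pileup of the 19 H3K4me3 peaks, 22.31 at a fold of 7.82, and ranked 1068th in pileup. TRGV9, a V segment common in blood gamma delta T cells, lay under a peak of 1991 bp with a pileup of 6.51 (fold 3.14).

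At the other end of TRG, a 12.8 kb H3K4me3 peak from 38240685 to 38253439 covered 93.1% of TRGC2 and all of TRGJ2, with a pileup of 12.53 and a fold of 4.68. It was the sixth longest of the list. No peak of either mark lay in the 63.6 kb between TRGJ2 and TRGV9, a stretch that holds TRGC1, the J segments TRGJP2, TRGJ1, TRGJP and TRGJP1, the V segments TRGV11, TRGVB and TRGV10, and TARP, a gene read from the TRGC1 region in another frame. H3K4me1 lay outside the H3K4me3 peaks, over TRGVA, TRGV2 and TRGV1 (pileups of 6.24, 6.36 and 5.48), and over TRGV3 together with H3K4me3 (pileup 3.97). These peaks were 2531, 2783, 4787 and 1810 bp long, and 2 more in TRG-AS1 outside the segments were 239 and 205 bp long. A peak list gives no value where nothing was called, and whether the DNA of an empty stretch is present in the line was not tested.

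In the TRD locus, which encodes the delta chain, H3K4me3 covered all 4 J segments under a single peak. This peak of 12.4 kb, the seventh longest of the list, ran on chromosome 14 from 22449991 to 22462344 over TRDJ1, TRDJ4, TRDJ2 and TRDJ3, with a pileup of 15.53 and a fold of 5.05. It stopped 588 bp before TRDC, and an H3K4me1 peak of 6334 bp (pileup 7.88, fold 3.31) began at 22462783 and covered TRDC whole. A 6265 bp H3K4me3 peak with a pileup of 12.75 (fold 5.28) lay between TRDV2 and TRDD1, over a start of TRD-AS1, the antisense lncRNA of the locus. TRDV2 was under both marks, with an H3K4me3 peak of 2097 bp (pileup 7.58) inside an H3K4me1 peak of 9701 bp (pileup 6.03). The segments TRDD1, TRDD2 and TRDD3 lay in a 13.2 kb stretch from 22436839 to 22449990 without a peak of either mark. The translocation with TLX1 is known to involve the delta region, and neither its junction nor the presence of the DNA in this stretch was tested, so an unmarked stretch and a lost or rejoined one cannot be told apart here or at the TRDJ peak next to it.

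In the TRA locus, which encodes the alpha chain, H3K4me3 was scarce. It lay at 2 of 54 V segments named TRAV, at 0 of 61 J segments and not at TRAC. TRAV22 had a 1682 bp peak with a pileup of 20.98 and a fold of 8.50, the highest fold of the 19. TRAV30 had one of 1461 bp with a pileup of 8.84 (fold 3.43). TRDV1, a delta V segment among the alpha ones, had a 327 bp H3K4me3 peak with a pileup of 14.52 (fold 5.14) that lay wholly under H3K4me1.

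H3K4me1 was at 13 of the 54 TRAV segments. The first 20 V segments of the locus, TRAV1-1 to TRAV13-2, had no peak of either mark in the 352 kb before the first H3K4me1 peak, at TRAV14DV4. Of the 61 TRAJ segments, TRAJ61 and TRAJ30 were under H3K4me1, and 26 consecutive J segments, TRAJ26 to TRAJ1, lay in 32.0 kb without a peak. H3K4me1 then covered the end of TRAC away from the J segments (2378 of its 4627 bp) in the longest H3K4me1 peak of the stretch. That peak spanned 21.1 kb from 22549755 to 22570854, with a pileup of 7.94 and a fold of 3.10, and ranked 152nd of 62087 in length. The next longest H3K4me1 peaks of the stretch were one of 10742 bp inside TRD-AS1 before TRDV2 (pileup 8.11, fold 3.72), one of 9873 bp over TRAV31 (5.59, fold 2.13), that over TRDV2, and one of 8778 bp over TRDV1 (5.72, fold 1.68). The TRAC-side peak ran through LINC02332 and LOC105370399 into DAD1, which encodes a subunit of the oligosaccharyltransferase.

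The TRB locus, which encodes the beta chain, was the one with most H3K4me1 and with its marks overlapping most often. H3K4me1 was at 42 of 61 V segments (68.9%). The 3 longest peaks, of 36152, 22985 and 54106 bp, followed each other from 142412033 to 142527681 on chromosome 7 with gaps of 1498 and 908 bp, and covered 97.9% of that run and all 16 of its V segments. They ranked 37th, 119th and 15th in length of 62087. Their pileups were 7.66, 6.33 and 6.89 and their folds 2.01, 1.94 and 2.49, against a median fold of 2.37 over the list. Their rank in length was thus far higher than their fold, which lay on both sides of that median. A 9511 bp peak (pileup 6.65, fold 2.56) lay over TRBV7-3, TRBV8-2, TRBV5-3 and TRBV9.

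H3K4me3 was at 5 TRB V segments. TRBV7-2 had a 2402 bp peak (pileup 8.97, fold 4.06), TRBV7-4 one of 1101 bp (5.08, fold 2.16) and TRBV5-4 one of 461 bp (4.96, fold 2.34), and these 3 lay wholly inside H3K4me1. So did a 568 bp peak between V segments, from 142497178 to 142497745 (5.20, fold 2.27). The pileups at TRBV7-4, at TRBV5-4 and of this peak were near the bottom of the list, ranking 10923rd, 10943rd and 10894th of 11100. TRBV7-9 (1798 bp) and TRBV18 (2044 bp) had higher pileups, 16.57 and 16.60, at folds of 3.24 and 2.37. The local background implied by pileup and fold was also high at these, 4.42 at TRBV7-9 and 6.43 at TRBV18, against a median of 2.02 over the H3K4me3 list, and its part in the result was not tested.

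From the end of the TRBV18 peak, 179.8 kb had no peak of either mark. That stretch, from 142616502 to 142796299, holds 13 V segments from TRBV19 on, the trypsinogen genes PRSS1 and PRSS2, TRBD1, the 6 TRBJ1 segments, TRBC1 and TRBD2. H3K4me3 resumed at TRBJ2-1 in a 6211 bp peak that ended 19 bp short of the end of TRBC2, with a pileup of 17.43 and a fold of 4.50. It covered all 8 TRBJ2 segments and 98.7% of TRBC2, while TRBJ1 and TRBC1 had no mark. TRBC1 and TRBC2, like TRGC1 and TRGC2 and many V segments, are near-identical copies, and how reads matching more than 1 place were treated is not given in the sources used here.

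**Figure D2:**
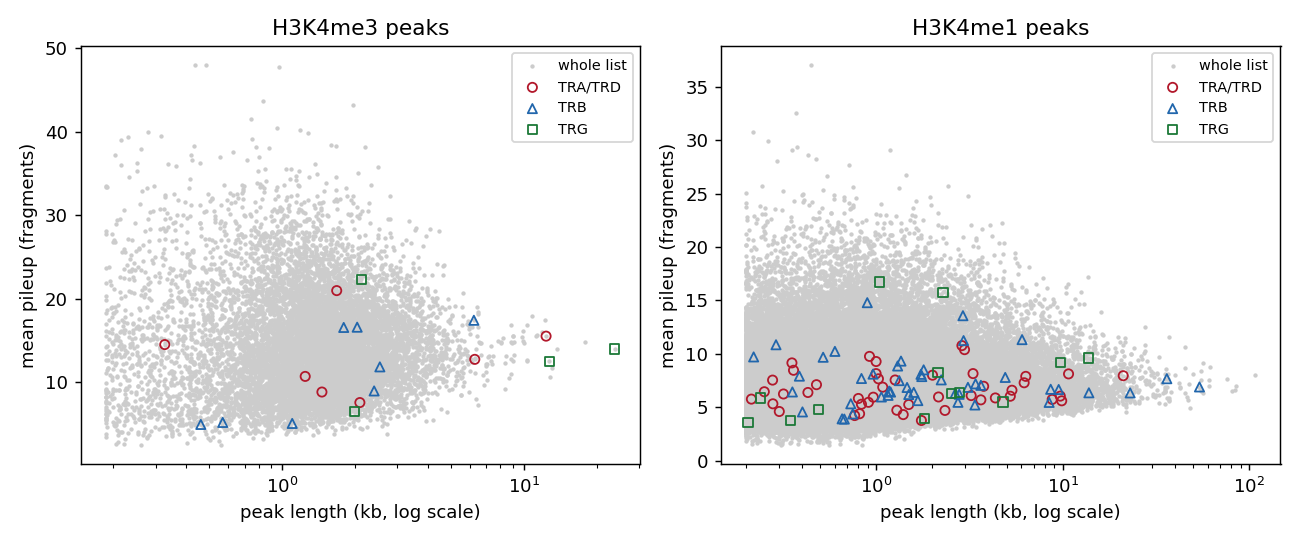
Length in kb (log scale, x axis) against mean pileup in fragments (y axis) for every H3K4me3 peak (left) and H3K4me1 peak (right), with the peaks of the 3 stretches drawn as open symbols over the whole lists in grey. The TRG peak of 23.8 kb lies at the right end of the H3K4me3 list at a middling pileup.

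Pooled over the loci, the segment classes differed in which mark they carried. Over all 227 segment genes, of which 37 are annotated as pseudogenes, 32 were under H3K4me3 (14.1%) and 67 under H3K4me1 (29.5%), with 8 under both and 136 under neither. Among all RefSeq genes of at most 1 kb, the size of 219 of the 221 V, D and J segments, 3.58% were under H3K4me3 and 6.99% under H3K4me1. These shares were 10.7% and 16.3% among RefSeq genes no longer than the longest segment gene (TRGC2, 9549 bp), and 22.8% and 31.6% among all RefSeq genes. The 32 segments under H3K4me3 stood under 15 peaks and the 67 under H3K4me1 under 48, so segments were not independent of each other and exact 95% (Clopper-Pearson) intervals are too narrow.

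V segments were under H3K4me3 in 17 of 132 cases (12.9%, interval 7.68 to 19.8) and under H3K4me1 in 62 (47.0%, 38.2 to 55.8). Pooled J segments showed the opposite order, with 13 of 84 under H3K4me3 (15.5%, 8.51 to 25.0) and 2 under H3K4me1 (2.38%, 0.290 to 8.34). This order did not hold for the 61 TRAJ segments, of which 0 were under H3K4me3 and 2 under H3K4me1. All 13 J segments under H3K4me3 stood under 3 peaks, those of TRDJ, TRBJ2 and TRGJ2. Of the 6 C segments, TRBC2 and TRGC2 were under H3K4me3 and TRAC, TRDC and TRBC2 under H3K4me1, and TRBC1 and TRGC1 had neither. The 5 D segments had no mark, but they are 8 to 16 bp long and few, and the upper limit of the exact interval is 52.2%. By locus, H3K4me3 was at 8 of 14 V segments in TRG, 5 of 61 in TRB and 4 of 57 in TRA/TRD. H3K4me1 was at 4 of 14 in TRG, 42 of 61 in TRB and 16 of 57 in TRA/TRD, so the order of the pooled V segments was reversed in TRG.

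**Figure D3:**
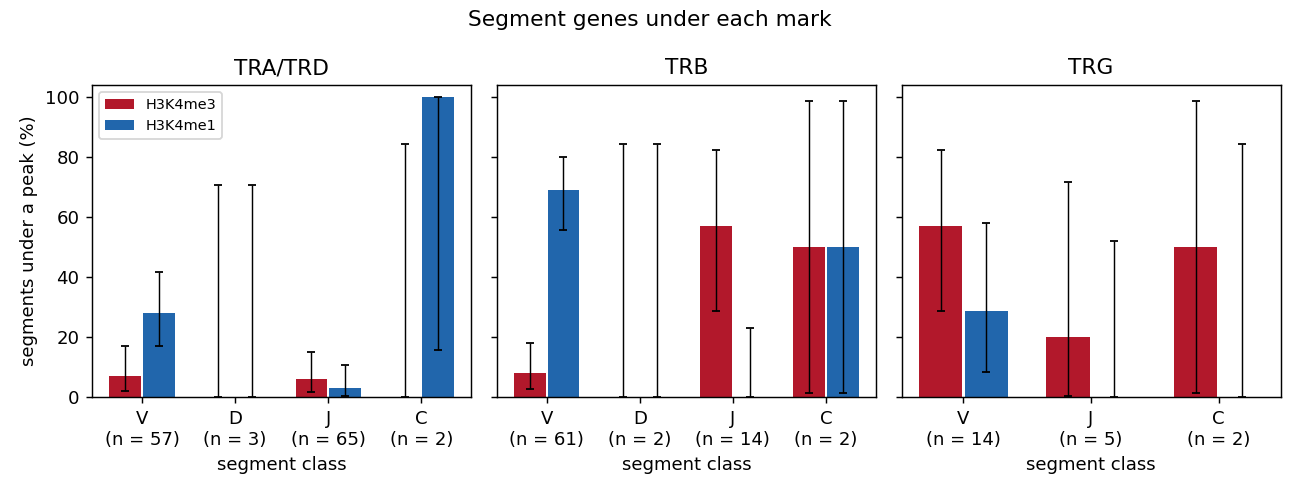
Share of segment genes with at least 1 bp under an H3K4me3 (red) or H3K4me1 (blue) peak, in percent on the y axis, by segment class and locus, with exact 95% intervals that cover counting error only. H3K4me1 is at 68.9% of TRB V segments while H3K4me3 is at 8 of 14 TRG V segments and 8 of 14 TRB J segments.

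Peaks placed by segment class, with C before J, D and V, differed in length more than in pileup. The 2 H3K4me3 peaks on C segments were 6211 and 12755 bp long with pileups of 17.43 and 12.53, and the 1 on J segments alone was 12354 bp long with a pileup of 15.53. The 12 H3K4me3 peaks on V segments had a median length of 1895 bp (327 to 23777) and a median pileup of 11.5 (4.96 to 22.31). Medians over the whole list were 1397 bp and 13.46. For H3K4me1, the 3 peaks on C segments had a median length of 13807 bp and a median pileup of 7.88, and the 2 on J segments were 964 and 6209 bp long. The 43 on V segments had a median of 2652 bp (279 to 54106) and a pileup of 6.29, the 39 between segments 1027 bp and 6.44, and the 18 in the flanks 914 bp and 9.24. The medians of the whole H3K4me1 list were 1020 bp and 6.46.

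The enhancer sides of TRA, TRB and TRG, set from the order of the segments, carried H3K4me1 and no H3K4me3. The 4178 bp between TRAC and LINC02332 were under H3K4me1 whole, as were the 12774 bp up to DAD1, the next protein-coding gene. The 10056 bp between TRBC2 and TRBV30 lay whole under a 13.8 kb peak (pileup 6.34, fold 2.03). Both values were below the medians of the H3K4me1 list, 6.46 and 2.37. Of the 20 kb beyond TRGC2, 92.2% was covered by peaks of 13.7 and 9.68 kb (pileups 9.60 and 9.16). This side reaches into STARD3NL, a gene of endosome membrane contacts. The 13.7 kb peak overlapped the span of that gene and the 9.68 kb peak lay wholly inside it. Part of this H3K4me1 is thus in a gene body, and its link to the TRG enhancer was not tested. The TRD enhancer side carried the other mark. Between TRDJ3 and TRDC, 84.5% of 3775 bp was under H3K4me3 and 3.95% under H3K4me1. The stretch from TRDC to TRAJ61, where a germline alpha promoter (T early alpha) is known to lie, was 90.1% under H3K4me1, from the TRDC peak and one of 6209 bp over TRAJ61 (pileup 7.28), and had no H3K4me3. The 5 kb before TRBD1 and before TRBD2, sides of known germline beta promoters, and the TRGC1 side up to the next segment had neither mark. With 1 bp enough to count, 5 of the 8 sides had H3K4me1 and 1 had H3K4me3. The TRD side counts for H3K4me1 only by 149 bp at the edge of the TRDC peak. Over chromosomes 1 to 22 and X, H3K4me1 covered 3.67% and H3K4me3 0.578% of the bases. No share over other windows of these sizes was computed.

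**Figure D4:**
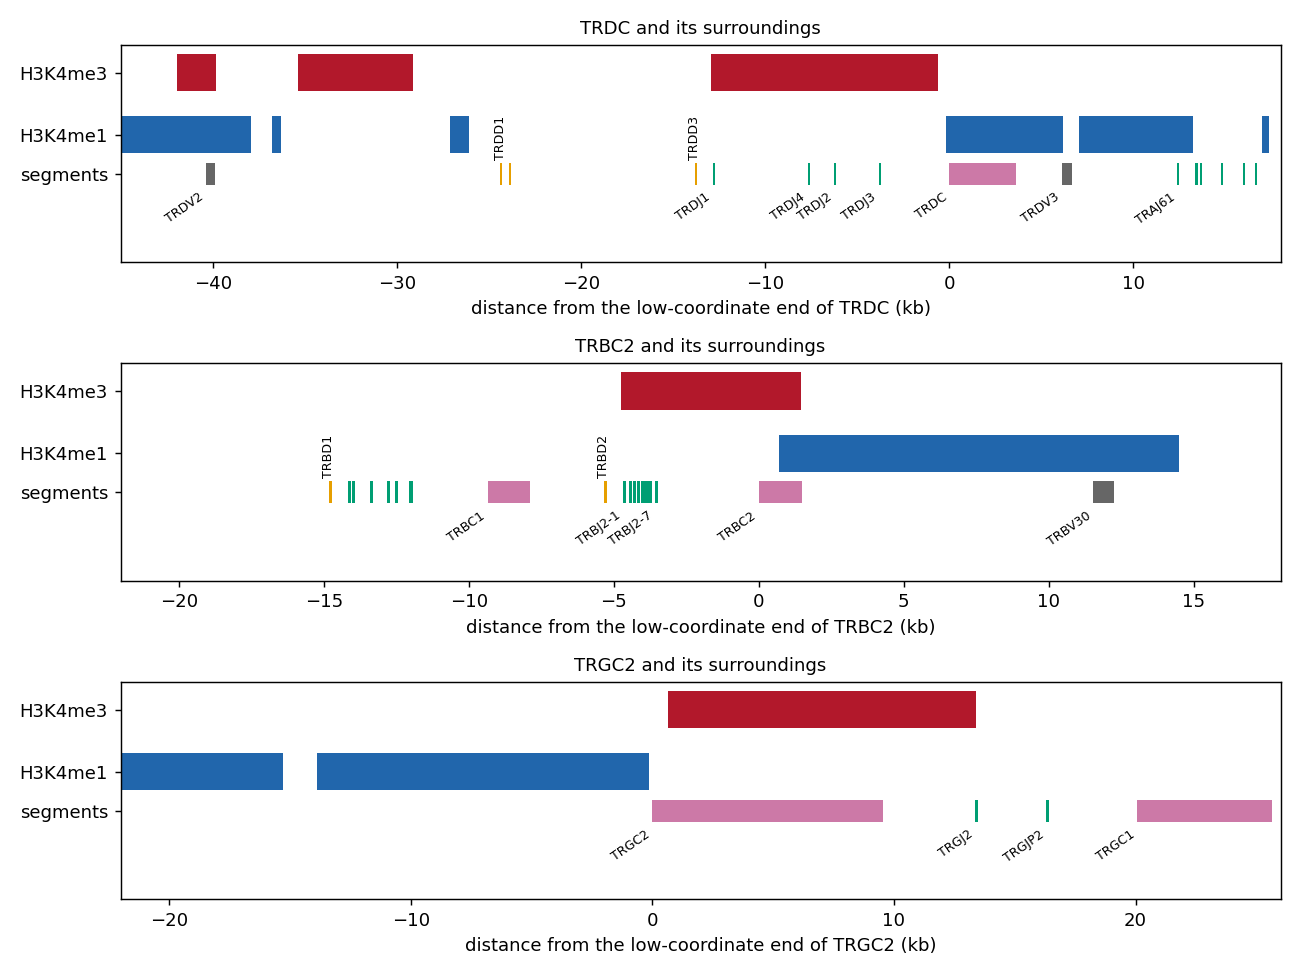
Peaks of H3K4me3 (red) and H3K4me1 (blue) around TRDC, TRBC2 and TRGC2, with distance in kb from the low-coordinate end of each C segment on the x axis and the segments coloured by class (V grey, D orange, J green, C pink; TRDD2 is drawn beside TRDD1 without a name, and the shortest segments are widened to be visible). In each of the 3 panels an H3K4me3 peak lies over J segments and an H3K4me1 peak follows on the side away from them.

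The edges of several H3K4me3 peaks lay close to the ends of segments where the recombination signals stand. All 3 peaks on J segments had an edge within 100 bp past that end: 98 bp before TRDJ1, 65 bp before TRBJ2-1 and 10 bp beyond TRGJ2 on its signal side. Of the 12 peaks on V segments, 4 stopped within 100 bp past the signal end: TRGV9 by 14 bp, TRDV2 by 68 bp, TRBV7-9 by 73 bp and TRBV18 by 86 bp. These 4 reached 1252 to 1532 bp out on the opposite side, where V promoters lie. The peaks at TRGV8, TRBV5-4 and TRDV1 stopped 143, 147 and 175 bp before the signal end, inside the segment. Those at TRBV7-4, TRAV30, TRAV22, TRGV3 and TRBV7-2 ran 520 to 1600 bp past it. Among the 43 H3K4me1 peaks on V segments, 2 stopped within 100 bp of the signal end, and 0 of the 2 on J segments did. Those at TRBV7-9, TRBV13 and TRAV19 stopped 107, 108 and 108 bp past it, so the H3K4me1 count depends on the limit. The limit of 100 bp was chosen after these distances were seen, and rearrangement of these segments was not tested.

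**Figure D5:**
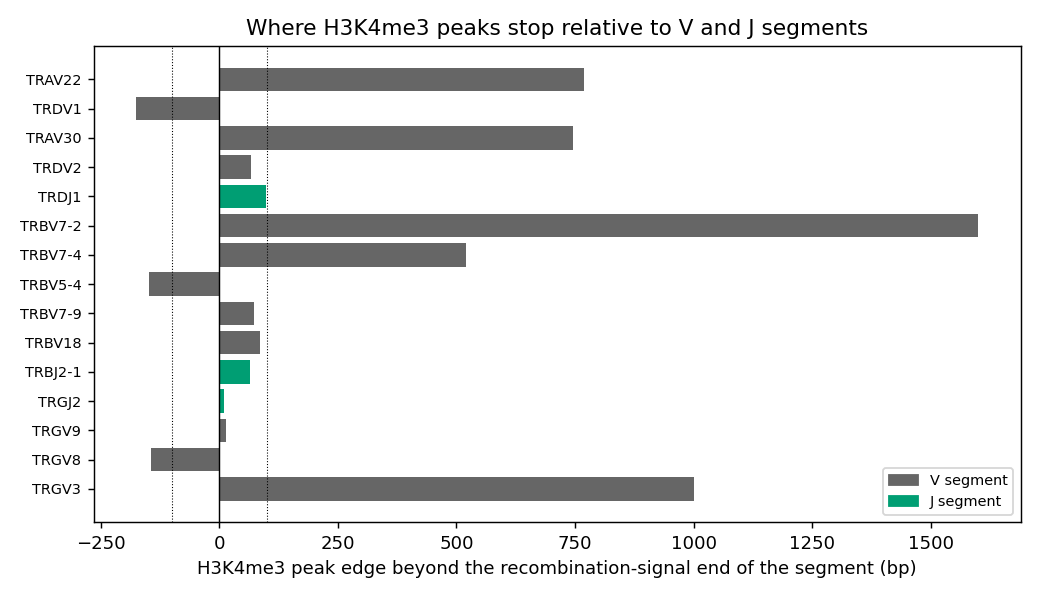
Distance in bp (x axis) from the recombination-signal end of each V or J segment to the edge of its H3K4me3 peak, with positive values where the peak runs past the segment and dotted lines at 100 bp on each side. The 3 J peaks and the peaks at TRDV2, TRBV7-9, TRBV18 and TRGV9 end between 10 and 98 bp past the segment.

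The marks overlapped more in TRB than in the other loci. Of the 19 H3K4me3 peaks 11 overlapped an H3K4me1 peak, against 46.8% in the whole list, and of the 105 H3K4me1 peaks 11 overlapped H3K4me3, against 9.58%. By locus, overlapping H3K4me3 peaks were 7 of 8 in TRB, 3 of 7 in TRA/TRD and 1 of 4 in TRG. Those of TRB include the weak peaks at TRBV7-4, at TRBV5-4 and between V segments. Their pileups were 5.08, 4.96 and 5.20, against a median of 13.46 over the H3K4me3 list. H3K4me1 also covered more of TRB (36.3%) than of TRA/TRD (13.0%) or TRG (18.4%), and its part in these overlaps was not tested. The bases under both marks came to 7.0 kb in TRB, 2.89 kb in TRA/TRD and 1.18 kb in TRG. None of the long peaks at TRDJ, TRGC2 and TRG-AS1 shared a base with H3K4me1.

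Of the 39 genes within the stretches that are not receptor segments, 8 had at least 1 bp of their span under H3K4me3 (20.5%), against 22.8% of all RefSeq genes, and 15 under H3K4me1 (38.5%), against 31.6%. These shares were near those of genes in general. H3K4me3 lay in the span or within 1 kb of DAD1 (1246 bp, pileup 10.71), of EPHB6, an Eph family receptor without kinase activity (2537 bp, pileup 11.85), of STARD3NL, whose H3K4me3 peak lies beyond the flank, and of the lncRNA genes LOC124903284, LOC107986855, LOC124901762, TRD-AS1 and TRG-AS1. TRD-AS1, which spans the delta locus, had 20716 bp of H3K4me3 and 43388 bp of H3K4me1. The olfactory receptor genes OR10G3, OR10G2, OR4E2 and OR4E1 beside the first alpha V segments, and PRSS58, PRSS1 and PRSS2, had no peak. ABHD4 and AMPH had H3K4me1 alone, under peaks of at most 908 and 491 bp, as had PRSS3P3, a trypsinogen pseudogene (895 bp, pileup 14.78), LOC105375539, MIR11400, LOC105375541, LINC02332 and LOC105370399.

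Partners of the receptor chains and the recombination enzymes were read by the same rule as the markers. Of 8 such genes, H3K4me3 was at 6 and H3K4me1 at 8, against 53.4% and 63.4% of all protein-coding genes. CD3D, CD3E and CD3G, the signalling chains of the receptor, had 4744, 1691 and 2779 bp of H3K4me3, with CD3D and CD3G under 1 shared peak of 7161 bp. RAG1 and RAG2 were under H3K4me3 peaks of 1742 bp (pileup 15.26) and 426 bp (pileup 18.16), and CD247, the zeta chain, under 5718 bp of H3K4me3 and 72847 bp of H3K4me1. PTCRA, the pre-T cell receptor alpha chain, and DNTT, the enzyme that adds bases at joints, had H3K4me1 only (1904 and 607 bp). Of 11 factors known to bind the receptor loci or rearranged to them, H3K4me3 was at 11 and H3K4me1 at 10, against the same 53.4% and 63.4%. Their longest H3K4me3 peaks were 13745 bp at BCL11B, 13111 bp at TLX1, 9010 bp at TCF7, 8867 bp at GATA3, 8343 bp at LEF1 and 7316 bp at ETS1. Those at RUNX1, RUNX3, TCF3, TCF12 and MYB reached 2717 to 4806 bp. Among them, RUNX1 had 98421 bp and ETS1 75605 bp of H3K4me1, and TLX1 had 8490 bp of H3K4me3 in its span or within 1 kb and no H3K4me1.

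The immunoglobulin loci, the B cell counterparts with the same segment layout, had little H3K4me3 by the same rule. TR segments were under H3K4me3 in 32 of 227 cases (14.1%), against 1 of 343 immunoglobulin segments (0.292%, IGHV3-64D), and under H3K4me1 in 29.5%, against 24.8% (85 segments). The H3K4me1 at immunoglobulin segments was almost all in IGH, with 82 of 174 segments, against 0 of 82 in IGK and 3 of 87 in IGL. All 9 IGHJ segments lay under a 14.1 kb H3K4me1 peak, while 2 of 84 receptor J segments had H3K4me1. H3K4me3 covered 0.25% of the IGH stretch, 0.0292% of IGK and 0.296% of IGL. H3K4me1 covered 16.1% of IGH, more than the 13.0% of TRA/TRD, and 0.131% of IGK and 2.69% of IGL. It lay at 68 of 127 IGH V segments (53.5%), against 47.0% of receptor V segments, so H3K4me1 at V segments was not particular to the receptor loci. The difference between the loci was not tested, since each mark had 1 library.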

How the data were processed

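The 3 libraries of ALL-SIL were used, 1 per group by the sample titles. Per the file headers, MACS2 (2.1.0.20150731) made the broad peaks with q limits of 0.1 (broad) and 0.05 (strong), 1 tag per position and background windows of 1000 and 10000 bp. The build was GRCh38, per the submitters' processing notes. The deposited pileup is a coverage signal, the deposited fold a ratio over the local background, and −log10 p and q were deposited beside them, all as means over a region, per the file headers. The input's rate of redundant tags was 0.05, and that of each mark 0.06.

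From these files, overlaps from 1 bp were computed with Python 3.11.15 and pandas 2.3.3, on code checked against simulated intervals. Genes were RefSeq spans without strand (GRCh38.p14), and segments were taken by symbol inside the locus spans. The implied background was pileup plus 1, divided by fold, minus 1. Beyond rounding, none fell below the genome-wide level from tag number and fragment length, 1.31 for H3K4me3 and 1.40 for H3K4me1. Named were all H3K4me3 peaks and the segments under them, the 5 longest H3K4me1 peaks per locus and those at C segments, enhancer sides or TRG-AS1, marked genes in the stretches, the receptor partner and locus-binding lists, and the immunoglobulin loci. Alternatives changed the q limit, the peak number, the flank and the overlap rule. The members and lists were chosen with earlier results of these data known. Intervals cover counting error only.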

Additional observations from a re-analysis of the deposited data

How the results depend on the processing

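Of 37 values recomputed under another setting, 19 stayed within 1.5 times. When only peaks with −log10 q from 10 up were kept, which leaves 43.5% of the whole H3K4me3 list and 2.82% of the H3K4me1 list, the H3K4me3 peaks were 7, covering 52.7 kb, and the median pileup on V segments was 17.75, while H3K4me1 peaks, covered kb, segments, enhancer sides and overlaps with H3K4me3 (peaks and kb) were all 0. With as many H3K4me1 as H3K4me3 peaks (17.9% of the list), 12 H3K4me1 peaks were left, covering 42.6 kb, with 1 segment (pileup 13.56) and 1 enhancer side under them, and overlapping H3K4me3 peaks and kb under both marks were 0. Most of the whole H3K4me1 list was lost too, but a larger part was lost in these loci. With equal numbers they kept 12 of 105 H3K4me1 peaks and 1 of 67 segments, against 17.9% of the list. The 105 peaks had a median fold of 2.13 and a median −log10 q of 1.89, against 2.37 and 2.27 over the list. By midpoint, 3 enhancer sides had H3K4me1 and 0 had H3K4me3. Flanks, the overlap needed for a segment, and an alpha side ending at the next protein-coding gene (chosen after seeing the data) changed no value by over 1.5 times. Neither reduced list held an H3K4me1 peak on J or C segments, and the first held none on V segments, so these lengths have no value there. No paired analysis was possible because each mark had 1 library.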

Other observations

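The local background implied at H3K4me1 peaks, which comes from the input library, was not level along TRA/TRD. Its median was 1.5 at the 7 peaks up to TRAV21 (1.45 to 1.89), 2.59 at the 18 peaks between TRAV21 and TRAV41 (2.09 to 3.41) and 2.04 at the 20 peaks beyond TRAV41 (1.40 to 4.13), against 1.89 over the H3K4me1 list. The bounds were chosen after the values were seen. In TRB the median was 2.76 over 47 peaks and in TRG 1.96 over 13. A background below 1.40 cannot appear in the H3K4me1 list, so the values do not show where the input had few reads.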
